A study of Mus musculus with 8 samples.

Results

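The genes described here encode 10 nuclear receptors, namely the steroid receptor genes Esr1 and Nr3c1, the ROR genes Rorb and Rora, the retinoid receptor genes Rarb and Rxrg, the COUP-TF genes Nr2f1 and Nr2f2, the orphan receptor gene Nr4a1 and the fatty acid sensor gene Pparg. Members were taken by gene symbol in the platform annotation. The 10 members had 32 of the 34945 probe sets with 1 gene symbol, and they were 10 of 18193 genes. They were chosen by measured values, the differences between tumour lines and parental cells on these arrays, so those differences are given as a description without p-values. Where a member is said to pass a threshold in that comparison, this too is only a description.

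Nuclear receptors are transcription factors that bind DNA and are, in many cases, switched by small lipophilic ligands such as oestrogens, glucocorticoids and retinoic acid. Steroid receptors act mostly as homodimers, retinoic acid receptors act as heterodimers with retinoid X receptors, and the ROR receptors bind DNA as monomers. In the neural crest, retinoic acid patterns migrating cells, and COUP-TF receptors help to set the fate of neurons and mesenchyme.

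Expression was measured on 8 arrays of mouse cells. Of these, 4 were of cells derived from tumours that JoMa1 cells transfected with MYCN had formed in immunocompromised mice, numbered 3 to 6 and called tumour lines here. A further array was labelled as JoMa1 with a GFP control transfection, and 3 were of parental JoMa1, a neural crest precursor line, numbered 1 to 3. JoMa1 is a single line and carries MYC fused to the hormone-binding part of a modified oestrogen receptor, so that tamoxifen switches MYC on. All groups derive from it, and the labels do not say which of them received tamoxifen. The labels call the tumours independent and do not say whether the MYCN cells came from 1 transfected stock. Separate cultures are not stated for the parental arrays, so p-values may rest in part on technical spread.

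Levels are values on the log2 scale made by robust multi-array averaging (RMA), the value after ± is an SD over arrays of the same kind, and SE is the standard error of the limma fit. Probes of different probe sets bind with different strength, so levels are compared between arrays and not between probe sets. The brightest Mycn probe set read 14.17 ± 0.08 in tumour lines (n = 4), 11.73 in the library labelled GFP-transfected and 7.42 ± 0.12 in parental arrays (n = 3). Another Mycn probe set read 4.60 ± 0.07 in tumour lines, 4.33 in the GFP-labelled library and 8.13 ± 0.11 in parental arrays, and the third read 6.07 ± 0.16 in tumour lines, 5.88 in the GFP-labelled library and 5.76 ± 0.18 in parental arrays. Which of them reads the transfected MYCN was not analysed here. In the 2 named first the GFP-labelled library differed from parental arrays in the direction of the tumour lines. By the brightest of them, it goes against its label, and each direction drawn from it has this limit. Bacterial trpnX controls, which mark empty signal, averaged 3.84 to 4.04 over the arrays. The 12 neural crest markers averaged 7.53 to 7.95 in tumour lines, 8.04 in the GFP-labelled library and 8.30 to 8.31 in parental arrays. The defining marker Foxd3 read 4.68 ± 0.09 in tumour lines, 4.56 in the GFP-labelled library and 4.59 ± 0.16 in parental arrays. These levels, those of parental JoMa1 included, lie near the trpnX controls, where RMA understates differences. Of the 12 neural crest markers, 3 rose in tumour lines against parental arrays (Snai1 by 1.14, Msx1 by 1.05 and Snai2 by 0.53) and 4 fell. Over all genes, 16.4% were higher and 19.3% lower. The other 5 did not pass the threshold given below, namely Foxd3 (0.09), Sox10 (0.09), Ngfr (-0.04), Tfap2a (0.65) and Twist1 (0.02). Tfap2b fell most, reading 4.62 ± 0.23 in tumour lines, 8.77 in the GFP-labelled library and 9.82 ± 0.15 in parental arrays. Zic1 read 4.95 ± 1.61 in tumour lines, 9.67 in the GFP-labelled library and 9.43 ± 0.06 in parental arrays, and Pax3 and Ets1 fell by 1.17 and 0.58. The 13 leukocyte markers averaged 5.70 to 5.79 in tumour lines, 5.58 in the GFP-labelled library and 5.41 to 5.49 in parental arrays, and Ptprc read 4.08 ± 0.04 in tumour lines, 4.25 in the GFP-labelled library and 4.14 ± 0.24 in parental arrays. Of these 13, 3 rose in tumour lines, namely Cd14 (1.83), Cd68 (0.80) and Lyz2 (0.49), and 0 fell, beside 16.4% of all genes higher and 19.3% lower. Cd68 was also higher in the GFP-labelled library (0.75). The 10 endothelial markers averaged 5.18 to 5.32 in tumour lines, 5.33 in the GFP-labelled library and 5.13 to 5.29 in parental arrays. Among them Cdh5 read 4.75 ± 0.15 in tumour lines, 6.71 in the GFP-labelled library and 4.75 ± 0.11 in parental arrays. The markers are named here after their values were seen. Actb probe sets at its 3' end read above those at its 5' end, a sign of RNA quality, by 0.516 to 0.613 in tumour lines, 0.616 in the GFP-labelled library and 0.626 to 0.641 in parental arrays. For Gapdh that difference was 0.092 to 0.151 in tumour lines, 0.075 in the GFP-labelled library and 0.053 to 0.078 in parental arrays. The part of these values in the results below was not tested.

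A probe set was called at an adjusted p under 0.05. Between tumour lines and parental arrays, 19 of the 32 member probe sets were called, 12 higher and 7 lower, against 33.9% of all probe sets (15.5% higher and 18.4% lower). The same number, 19, had tumour lines and parental arrays that did not overlap (12 above, 7 below), against 42.0% of all probe sets (19.9% above and 22.1% below). By the brightest probe set of each gene, 3 of the 10 members were called higher and 2 lower, against 35.6% of all genes (16.4% higher and 19.3% lower). The median difference of the 32 was 0.00 and that of all probe sets 0.008. Since the members were chosen with this contrast in view, nothing is read from these shares.

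Rorb, which encodes the ROR receptor of retina, brain and bone, was higher in tumour lines by the largest amount among the members. Its brightest probe set, 1455799_at, read 10.73, 10.98, 10.72 and 10.80 in tumour lines 3 to 6, 4.91 in the GFP-labelled library and 4.70, 5.03 and 5.01 in parental arrays. Every tumour line lay far above every other array, and the lines were close to each other, within 0.26. The difference between tumour lines and parental arrays was 5.89 (SE 0.11, 59.4-fold). Probe set 1425162_at read 9.91, 9.96, 10.05 and 10.10 in tumour lines, 5.35 in the GFP-labelled library and 5.64, 5.36 and 5.60 in parental arrays, a difference of 4.47 (SE 0.09). Probe set 1439862_at read 9.65, 9.62, 9.61 and 9.36 in tumour lines, 4.57 in the GFP-labelled library and 3.90, 3.93 and 4.18 in parental arrays, a difference of 5.56 (SE 0.10). All 3 probe sets thus showed the same split. The parental values of the last of them lay at the level of the trpnX controls, where RMA understates differences.

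RefSeq (mouse build GRCm38.p6) gives Rorb a pair of start sites, whose 250 bases before the start are shown because Rorb had the largest difference of the members. They lie on the minus strand at chr19:19111197-19111446 and chr19:19001118-19001367.
Rorb promoter 1: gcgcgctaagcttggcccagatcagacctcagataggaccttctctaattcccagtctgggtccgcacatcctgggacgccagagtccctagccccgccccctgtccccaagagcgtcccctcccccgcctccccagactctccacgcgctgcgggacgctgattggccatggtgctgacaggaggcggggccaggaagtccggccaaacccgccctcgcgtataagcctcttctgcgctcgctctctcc
Rorb promoter 2: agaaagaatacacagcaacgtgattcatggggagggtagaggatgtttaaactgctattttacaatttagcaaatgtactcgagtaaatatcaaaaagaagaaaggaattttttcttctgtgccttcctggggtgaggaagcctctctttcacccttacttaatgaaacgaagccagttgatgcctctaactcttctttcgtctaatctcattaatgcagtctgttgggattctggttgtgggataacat
The upstream start is rich in G and C (66.0%, 18 CpG pairs) and the downstream start is not (39.2%, 4 CpG pairs). Neither window of 300 bases (250 before and 50 after the start) held AGGTCA, the core site of many nuclear receptors, or CACGTG, the E-box bound by MYC proteins, on either strand. Over all 32851 RefSeq windows of that length, 16.3% held AGGTCA and 7.15% held CACGTG. Which start the arrays read is not known here.

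Rora encodes the related receptor RORalpha, known for its role in the cerebellum and the circadian clock. Its brightest probe set, 1424034_at, read 8.04, 8.73, 8.45 and 8.29 in tumour lines 3 to 6, 5.32 in the GFP-labelled library and 7.10, 7.29 and 6.84 in parental arrays. The tumour lines lay above and the GFP-labelled library below all parental arrays. Tumour lines differed from parental arrays by 1.30 (SE 0.17, 2.46-fold), and the GFP-labelled library by -1.76 (SE 0.25, limma adjusted p = 0.00236). Of the 9 Rora probe sets, 6 had every tumour line above every parental array, with differences of 0.72 to 1.30, and the other 3 (1441085_at, 1458145_at and 1424035_at) differed by -0.00 to 0.14. Averaged over the 9, tumour lines differed from parental arrays by 0.77 and the GFP-labelled library by -0.71. In the same 6 probe sets the GFP-labelled library lay below every parental array, which held for 31.9% of all probe sets. In the GFP-labelled library 4 of the 9 were called lower, among them 1420583_a_at (-1.28, SE 0.19, limma adjusted p = 0.00274). The calls of 1455165_at (-0.80, SE 0.22) and 1436326_at (-0.97, SE 0.22) in that library changed when arrays were left out. The first differed by -0.74 without parental array 1 and by -0.74 without parental array 2, and was then not called, nor without tumour line 6 (-0.80). The second differed by -0.97, -0.98 and -0.97 without parental array 1, 2 and 3 and was then not called.

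**Figure D1:**
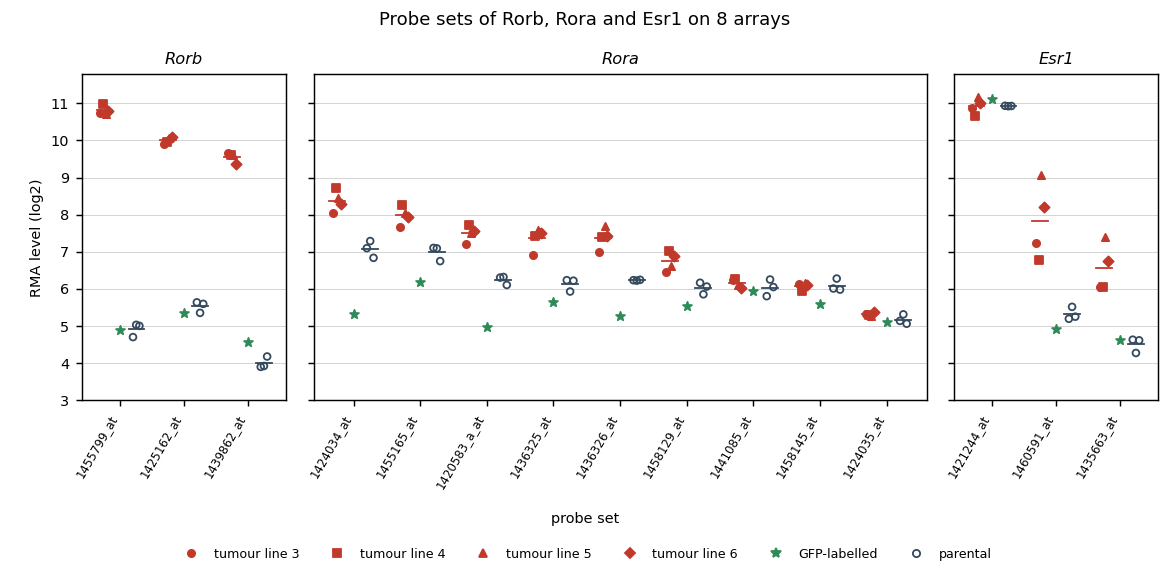
Level (RMA, log2; vertical axis) of each probe set of Rorb, Rora and Esr1 (horizontal axis) on each array, with tumour lines left, the GFP-labelled library in the middle and parental arrays right; short lines are group means. All 3 Rorb probe sets put the tumour lines above 9 and the other arrays below 6, 6 of 9 Rora probe sets order the arrays as tumour lines, parental, GFP-labelled from high to low, and the bright Esr1 probe set reads near 11 on every array.

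ROR receptors are known to drive the clock gene Arntl (Bmal1), which their competitors, the REV-ERB receptors Nr1d1 and Nr1d2, repress through the same sites. Both REV-ERB genes also rose in tumour lines against parental arrays, Nr1d1 by 0.46 (SE 0.10, limma adjusted p = 0.00565) and Nr1d2 by 0.61 (SE 0.10). What either kind of receptor does to Arntl in these cells was not tested. Of 14 clock genes, 5 rose and 4 fell in tumour lines against parental arrays, with a median of -0.15, beside 16.4% higher, 19.3% lower and a median of 0.013 over all genes by their brightest probe sets. Arntl read 8.97, 8.96, 8.99 and 8.80 in tumour lines, 6.91 in the GFP-labelled library and 7.23, 7.07 and 7.01 in parental arrays. It rose by 1.82 (SE 0.09, limma adjusted p = 1.37e-06), and another Arntl probe set, 1457740_at, differed by 0.16 and was not called (0.99 for their mean). Nfil3, a repressor of clock output genes, rose by 1.80 (SE 0.07, limma adjusted p = 5.65e-07) and read 10.20 ± 0.07 in tumour lines, 6.97 in the GFP-labelled library and 8.40 ± 0.05 in parental arrays. Clock, the partner of Arntl, rose by 1.51 (SE 0.09, limma adjusted p = 6.85e-06). The output gene Dbp (-1.31, SE 0.07), the period gene Per3 (-1.22, SE 0.16) and the cryptochrome gene Cry2 (-0.74, SE 0.13) fell, with limma adjusted p-values of 0.0026 or lower, and Per3 differed by -0.47 as the mean of its 6 probe sets. In the GFP-labelled library Clock was called higher (0.95), and Dbp (-1.27) and Nfil3 (-1.43) were called lower than in parental arrays.

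Arntl and Nfil3 were the only genes of that list whose RefSeq promoter windows held TAGGTCA, the core site with the preceding T that ROR and REV-ERB receptors prefer, which contains AGGTCA and was found in 2.61% of all windows. The 30 bases around each match are shown with the match in capitals, read in the direction of the gene, from chr7:113207529-113207558 (plus strand) for Arntl and chr13:52981034-52981063 (minus strand) for Nfil3.
Arntl site: gaaggcagaaagTAGGTCAgggacggaggt
Nfil3 site: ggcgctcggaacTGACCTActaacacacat
The Arntl match lies 31 to 37 bases after a start in the sense direction, and the Nfil3 match lies at -12 to -6 in the antisense direction. Among the genes of the other lists, the windows of Ncoa6, Plin2 and Glul also held TAGGTCA, and these are named for their sequence. Ncoa6 differed by -1.16 (SE 0.08) between tumour lines and parental arrays and was called lower. Plin2 (-0.12) and Glul (-0.01) were not called. A match describes letters and does not show that a receptor binds there.

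Esr1 encodes oestrogen receptor alpha, and its 3 probe sets did not show the same pattern. Probe set 1460591_at read 7.25, 6.78, 9.08 and 8.21 in tumour lines 3 to 6, 4.93 in the GFP-labelled library and 5.20, 5.52 and 5.25 in parental arrays. Probe set 1435663_at read 6.05, 6.05, 7.40 and 6.74 in tumour lines, 4.61 in the GFP-labelled library and 4.63, 4.28 and 4.62 in parental arrays. Both put every tumour line above every other array, and in both line 5 was highest and line 6 next. The differences between tumour lines and parental arrays were 2.50 (SE 0.47, 5.68-fold) and 2.05 (SE 0.31, 4.15-fold). The brightest probe set, 1421244_at, read 10.88, 10.67, 11.18 and 11.02 in tumour lines, 11.13 in the GFP-labelled library and 10.93, 10.92 and 10.93 in parental arrays. It was high on all 8 arrays, the groups overlapped, and the difference was 0.01 (SE 0.11). Where each probe set lies along the Esr1 transcript was not analysed here, so which of them can also read the receptor part of the MYC fusion is not known here.

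Among the Esr1 probe sets, the tumour lines were spread more widely in 2 of the 3. The SD over the 4 lines was 1.02 for 1460591_at and 0.65 for 1435663_at, larger than that of 99.5% and 98.3% of all probe sets. For the brightest, 1421244_at, the SD was 0.22, at the 79.5th percentile. The brightest Rorb probe set had an SD of 0.12, at the 44.7th percentile. The lowest and the highest line were apart by 2.29 in 1460591_at and by 1.35 in 1435663_at.

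Genes of oestrogen synthesis and response went both ways. Of the 12 measured, 5 rose and 2 fell in tumour lines, beside 16.4% of all genes higher and 19.3% lower, with a median of 0.24. Ccn5, a matricellular protein gene induced by oestrogen in breast cells, rose by 5.49 (SE 0.10, 44.9-fold, limma adjusted p = 1.16e-08), reading 12.58 ± 0.05 in tumour lines, 6.44 in the GFP-labelled library and 7.09 ± 0.20 in parental arrays. Igfbp4, a binding protein of insulin-like growth factors, rose by 3.31 (SE 0.10), and the chemokine gene Cxcl12 rose by 3.11 (SE 0.21), with limma adjusted p-values of 1.65e-07 and 1.03e-05. In the GFP-labelled library the same 3 genes were lower than in parental arrays, by -0.65, -1.82 and -3.91. Between tumour lines and parental arrays, Cxcl12 1417574_at differed by 3.36 and was called higher, and Cxcl12 1439084_at differed by 0.12 and was not called. The mean over the 3 Cxcl12 probe sets differed by 2.20. Rerg, an oestrogen-regulated growth inhibitor gene, fell by 1.52 (SE 0.19, limma adjusted p = 0.000381) and differed by -3.66 in the GFP-labelled library. With that library pooled with the parental arrays, Rerg differed by -0.60 and was not called. The lactoferrin gene Ltf fell by 0.32 (SE 0.09, limma adjusted p = 0.0207), a call that ended without parental array 2 (-0.27) or 3 (-0.30). The remaining genes called higher in tumour lines were Foxa1 (0.86, SE 0.18) and Xbp1 (0.76, SE 0.09), which differed by 0.55 and -0.80 in the GFP-labelled library. The widely used oestrogen receptor targets Pgr (0.08, SE 0.10), Greb1 (-0.01, SE 0.08) and Tff1 (0.10, SE 0.09) were not called, and they were picked for mention after their values were seen. Pgr read 4.43 ± 0.02 in tumour lines and 4.34 ± 0.21 in parental arrays, near the trpnX controls, where RMA understates differences.

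Nr3c1 encodes the glucocorticoid receptor, and its differences were small. The brightest probe set, 1460303_at, read 9.27, 9.21, 9.41 and 9.66 in tumour lines 3 to 6, 10.10 in the GFP-labelled library and 9.77, 9.74 and 9.64 in parental arrays. Line 6 lay among the parental arrays and the other lines below them. The difference was -0.33 (SE 0.11), and this probe set was not called. It was called lower without tumour line 6 (-0.42) and with the GFP-labelled library pooled with the parental arrays (-0.43). Array weights, a trended robust prior, 1 probe set per gene and only probe sets above the median level also gave that call. Of the 6 Nr3c1 probe sets, 1453860_s_at alone had every tumour line below every parental array (-0.45, SE 0.11). It was called lower, and that call ended without parental array 1 (-0.36) or 3 (-0.42). The other 5 differed by -0.33 to 0.04. Since the members were chosen with tumour lines against parental arrays in view, nothing is read from these calls of Nr3c1. In the GFP-labelled library all 6 probe sets lay above every parental array, by 0.14 to 0.54 from the mean, with limma adjusted p-values of 0.0999 or higher. Without tumour line 6, 1421867_at (0.47) and 1457635_s_at (0.54) were called, the last also without tumour line 4. Over all probe sets, 37.9% put that library above every parental array.

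Of 13 genes that handle or answer glucocorticoids, 6 rose and 3 fell in tumour lines, beside 16.4% of all genes higher and 19.3% lower, with a median of 0.18. The phosphatase gene Dusp1, also an early response gene, rose by 3.17 (SE 0.12, limma adjusted p = 3.77e-07) and the kinase gene Sgk1 rose by 1.39 (SE 0.10, limma adjusted p = 1.17e-05). Hsd11b1, the enzyme that regenerates active glucocorticoid, rose by 0.96 (SE 0.27, limma adjusted p = 0.0243), a call that ended without parental array 2 (0.94) or 3 (0.82). The classical receptor targets Tsc22d3 (-1.03, SE 0.16) and Fkbp5 (-0.57, SE 0.10) and the kinase gene Pdk4 (-0.58, SE 0.09) fell, with limma adjusted p-values of 0.0026 or lower. Another 2 probe sets of Tsc22d3 and 2 of Fkbp5 were not called, and the means over probe sets differed by -0.61 and -0.30.

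Rarb encodes retinoic acid receptor beta, which retinoic acid itself induces. It had 1 probe set, 1454906_at, which read 5.07, 4.91, 4.93 and 4.65 in tumour lines 3 to 6, 6.40 in the GFP-labelled library and 7.76, 7.68 and 7.42 in parental arrays. The GFP-labelled library lay between the groups, and neither group reached it. Tumour lines were lower than parental arrays by -2.73 (SE 0.12, 6.63-fold). The GFP-labelled library was lower by -1.22 (SE 0.18, limma adjusted p = 0.00288).

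The Rarb promoter is shown because it holds the element through which retinoic acid receptors are known to act on this gene. The 250 bases before the RefSeq start lie on the minus strand at chr14:16575477-16575726, and capitals mark the match to GTTCA, 5 bases of any kind and AGTTCA at -52 to -37.
Rarb promoter: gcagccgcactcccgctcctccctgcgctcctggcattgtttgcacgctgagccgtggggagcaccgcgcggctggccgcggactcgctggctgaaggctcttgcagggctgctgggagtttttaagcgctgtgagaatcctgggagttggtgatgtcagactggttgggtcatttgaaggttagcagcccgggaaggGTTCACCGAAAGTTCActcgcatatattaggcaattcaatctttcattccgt
Searched on both strands, this motif was found in 11 of the 32851 RefSeq windows (0.0335%). The motif has the letters of the Rarb element itself, so the match in Rarb was given beforehand. Looser forms of the element were not searched, and the share holds for these letters only. Among the members and the retinoid genes the other window was that of Cyp26a1, the enzyme that breaks down retinoic acid, where the match lies in the antisense direction at -32 to -17 (chr19:37697769-37697798, plus strand, 30 bases shown).
Cyp26a1 site: ttaaagaTGAACTTTGGGTGAACtaatttg
Cyp26a1 read 5.02 ± 0.06 in tumour lines, 5.03 in the GFP-labelled library and 4.94 ± 0.20 in parental arrays, was not called, and is named for its sequence.

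Of 14 genes that make, carry or answer retinoids, 2 rose and 4 fell in tumour lines, beside 16.4% of all genes higher and 19.3% lower, with a median of 0.06. The retinoic acid binding protein gene Crabp1 fell by 2.82 (SE 0.13, limma adjusted p = 1.23e-06), reading 5.18 ± 0.19 in tumour lines, 5.03 in the GFP-labelled library and 8.01 ± 0.21 in parental arrays. Stra6, the retinol uptake receptor gene, fell by 2.47 (SE 0.16, limma adjusted p = 1.01e-05), and Dhrs3, which reduces retinaldehyde, fell by 1.86 (SE 0.18, limma adjusted p = 8.01e-05). Like Rarb, these 3 genes were also lower in the GFP-labelled library than in parental arrays, by -2.97, -1.26 and -4.67, with limma adjusted p-values of 0.0111 or lower. With that library pooled with the parental arrays, Dhrs3 differed by -0.70 and was not called. Crabp2, another retinoic acid carrier gene, rose by 1.73 (SE 0.28, limma adjusted p = 0.00144) and was lower in the GFP-labelled library (-1.74). Cyp26b1, which breaks down retinoic acid, rose by 1.52 (SE 0.43, limma adjusted p = 0.0251). That call ended without parental array 1, 2 or 3 or tumour line 3 (1.43 to 1.62) and with a trended prior (1.52).

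Rxrg, the gene of the gamma form of the heterodimer partner, had 1 probe set and no difference beyond the spread. It read 6.33, 6.24, 6.33 and 6.11 in tumour lines, 6.26 in the GFP-labelled library and 6.32, 6.22 and 6.40 in parental arrays (-0.06, SE 0.08). Between tumour lines and parental arrays, the other partner genes Rxra (0.02, SE 0.10) and Rxrb (-0.03, SE 0.07) and the receptor gene Rara (-0.03, SE 0.06) were not called. Rarg was higher in tumour lines (0.46, SE 0.07, limma adjusted p = 0.00132). The GFP-labelled library differed from parental arrays by -1.04 (SE 0.15) for Rxra, -0.66 (SE 0.11) for Rarg, -0.21 for Rxrb and -0.13 for Rara. These 4 were named after their values were seen.

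Nr2f2 encodes COUP-TFII, a receptor of mesenchyme and veins, and was lower in tumour lines. Its brightest probe set, 1416159_at, read 9.59, 9.49, 9.58 and 9.57 in tumour lines 3 to 6, 10.63 in the GFP-labelled library and 10.78, 10.63 and 10.58 in parental arrays. The GFP-labelled library read like the parental arrays and the tumour lines lay below all of them, within 0.10 of each other. The difference was -1.10 (SE 0.08, 2.15-fold). Of the 6 Nr2f2 probe sets, 5 had every tumour line below every parental array, with differences of -1.07 to -1.45, and 1431237_at differed by -0.03. In the GFP-labelled library the 6 differed from parental arrays by -0.32 to 0.17, with limma adjusted p-values of 0.289 or higher.

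Nr2f1 encodes COUP-TFI, and its 1 probe set did not follow Nr2f2. It read 8.86, 9.11, 9.17 and 8.65 in tumour lines, 9.77 in the GFP-labelled library and 9.29, 9.14 and 9.20 in parental arrays. Tumour lines and parental arrays overlapped, with a difference of -0.26 (SE 0.13), and the GFP-labelled library was highest (0.56, SE 0.19, limma adjusted p = 0.0956). That last difference was called without tumour line 6. Nr2f6, a more distant COUP-TF gene, fell by 0.98 in tumour lines (SE 0.08, limma adjusted p = 3.2e-05).

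**Figure D2:**
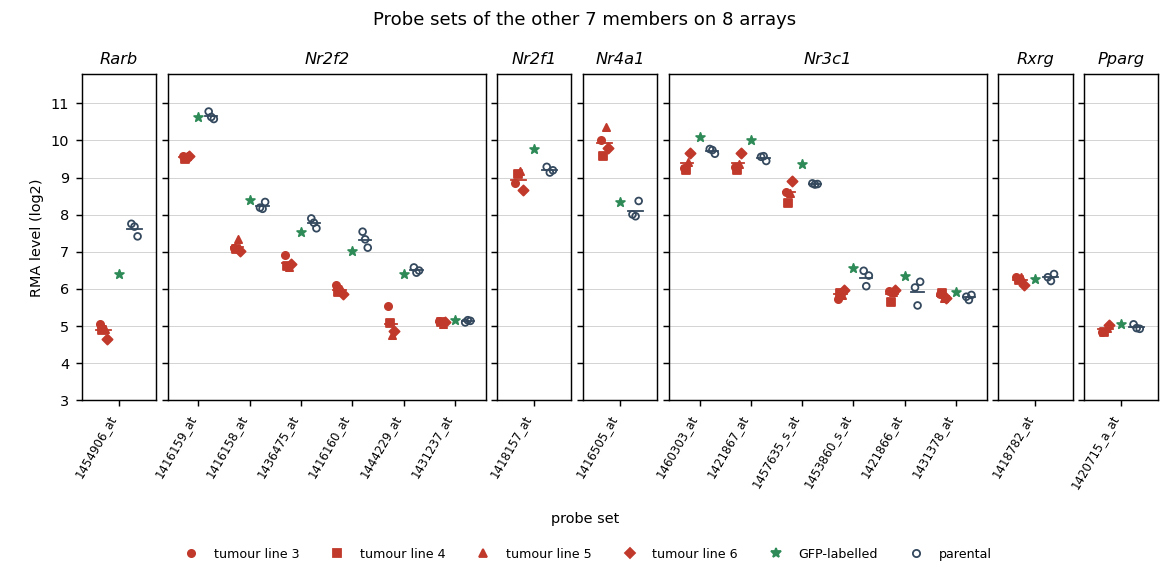
Level (RMA, log2; vertical axis) of each probe set of Rarb, Nr2f2, Nr2f1, Nr4a1, Nr3c1, Rxrg and Pparg (horizontal axis) on each array, with symbols and group order of tumour lines, GFP-labelled library and parental arrays from left to right. Rarb is lowest in tumour lines, higher in the GFP-labelled library and highest in parental arrays, 5 of 6 Nr2f2 probe sets have the tumour lines below all other arrays, and Rxrg and Pparg read alike in all groups.

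Nr4a1 encodes NUR77, an orphan receptor that growth factors and calcium induce within minutes. Its 1 probe set, 1416505_at, read 10.01, 9.59, 10.37 and 9.79 in tumour lines 3 to 6, 8.35 in the GFP-labelled library and 8.01, 7.96 and 8.37 in parental arrays. All tumour lines lay above the other arrays, and the GFP-labelled library lay within the parental range. The difference between tumour lines and parental arrays was 1.83 (SE 0.18, 3.55-fold). The related gene Nr4a2 rose by 1.25 (SE 0.13, limma adjusted p = 0.000135), 5 of its 6 probe sets were called higher, and their mean over all 6 differed by 0.78. The brightest probe set of Nr4a3 differed by -0.03 (SE 0.09) and was not called, 1 of its other probe sets was called higher, and it was named after its value was seen.

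Pparg, the gene of the receptor that drives fat cell differentiation, had 1 probe set, which read 4.83, 4.85, 4.96 and 5.02 in tumour lines, 5.07 in the GFP-labelled library and 5.05, 4.95 and 4.93 in parental arrays. The groups overlapped (-0.06, SE 0.08). Of 12 genes that this receptor or fat cells use, 1 rose and 3 fell in tumour lines, beside 16.4% of all genes higher and 19.3% lower. Angptl4, an inhibitor of lipoprotein lipase, rose by 3.88 (SE 0.33, 14.7-fold, limma adjusted p = 3.82e-05), and another Angptl4 probe set differed by 0.36 and was not called (2.12 for their mean). The fatty acid carrier gene Fabp4 fell by 1.41 (SE 0.15, limma adjusted p = 0.000135), reading 5.11 ± 0.27 in tumour lines, 9.17 in the GFP-labelled library and 6.52 ± 0.17 in parental arrays, with a mean over its 4 probe sets that differed by -0.61. In the GFP-labelled library it was higher than in parental arrays, by 2.65 (limma adjusted p = 0.000146). Agpat2, an enzyme of triglyceride synthesis, fell by 0.77 (SE 0.13). Cebpa, a transcription factor gene of fat cells, fell by 0.39 (SE 0.12, limma adjusted p = 0.0311), and that call ended without parental array 1 (-0.32), 2 (-0.41) or 3 (-0.43) and with the GFP-labelled library pooled with the parental arrays (-0.22).

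The library labelled GFP-transfected shares the parental arrays as its comparison. Against them 6 of the 32 member probe sets were called, 1 higher and 5 lower, beside 14.4% of all probe sets (7.59% higher and 6.76% lower). The 5 lower were 4 of Rora and that of Rarb, and the higher was Rorb 1439862_at (0.57, SE 0.16, limma adjusted p = 0.0443). That call ended without parental array 1 (0.52) or 2 (0.53), and without tumour line 3, 4 or 5, which leave the value at 0.57 and enter only through the estimate of spread. By the brightest probe set, 2 of the 10 members were called, both lower, beside 15.5% of all genes (7.18% higher and 8.32% lower). The count of 6 probe sets was 3 without parental array 1 or 2. Between tumour lines and the GFP-labelled library, 24 of 32 were called, 13 higher and 11 lower, beside 29.0% of all probe sets (12.0% higher and 17.0% lower). By the brightest probe set 7 members were called, 3 higher and 4 lower, beside 30.0% of all genes (13.8% higher and 16.2% lower). This contrast shares the tumour arrays with the one by which the members were chosen, so nothing is read from these shares either. Rorb 1455799_at differed by 5.90 (SE 0.15), Rora 1424034_at by 3.06 (SE 0.24) and Nr4a1 by 1.59 (SE 0.27). Rarb differed by -1.51 (SE 0.18) and Nr2f2 1416159_at by -1.08 (SE 0.11). The remaining called members were Nr2f1 (-0.82, SE 0.19) and Nr3c1 1460303_at (-0.71, SE 0.17).

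**Figure D3:**
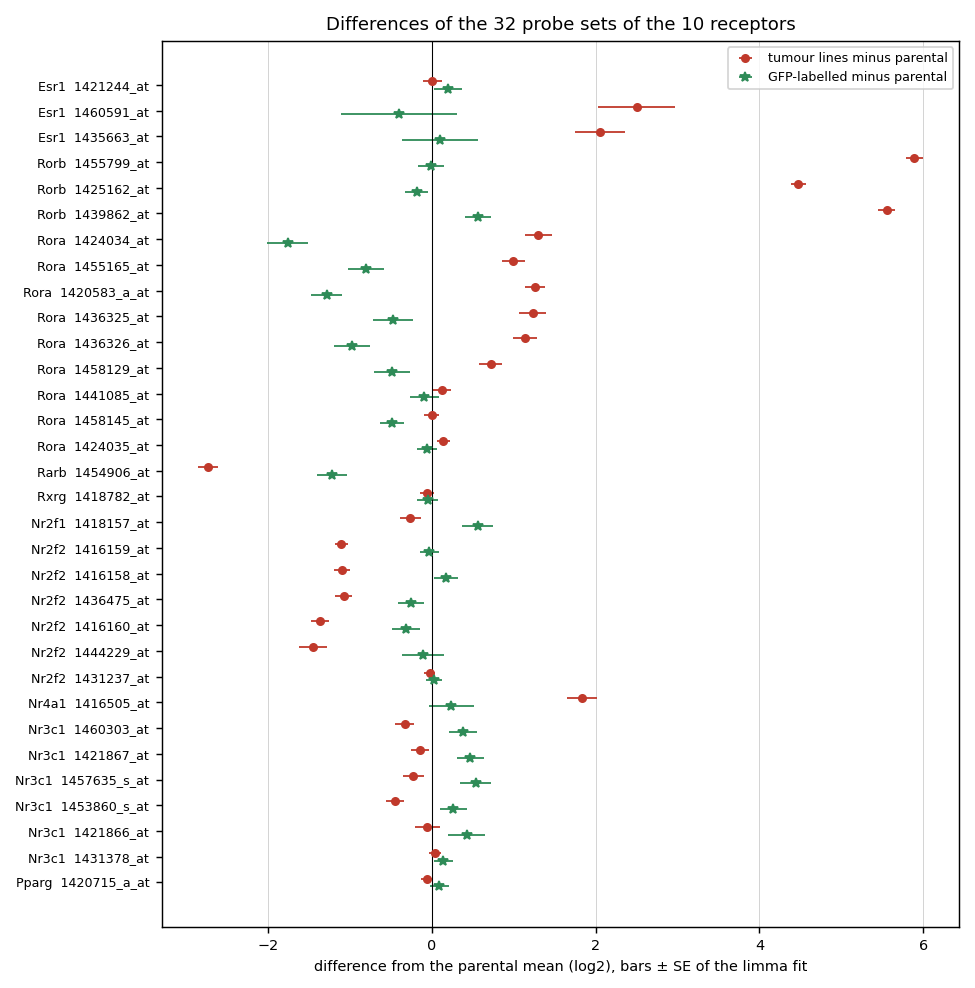
Difference from the parental mean (log2; horizontal axis, bars ± SE of the limma fit) for the 32 probe sets (rows), with tumour lines as circles and the GFP-labelled library as stars; both share the 3 parental arrays. Rorb lies at 4.47 to 5.89 in tumour lines and at -0.18 to 0.57 in the GFP-labelled library, 8 of 9 Rora probe sets lie above 0 in tumour lines and below 0 in the GFP-labelled library, 2 of them (1441085_at and 1424035_at) by 0.14 or less, and Rarb lies below 0 in both.

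Of 39 further genes of the family, 34 were measured and 5 were not analysed here. Of the 34, 9 rose and 2 fell in tumour lines against parental arrays, beside 16.4% of all genes higher and 19.3% lower, with a median of 0.08. Vdr, the vitamin D receptor gene, rose most: it read 11.62, 10.99, 11.74 and 11.11 in tumour lines, 4.97 in the GFP-labelled library and 6.56, 6.80 and 6.40 in parental arrays, a difference of 4.78 (SE 0.19, 27.4-fold, limma adjusted p = 6.23e-07). The GFP-labelled library lay below the parental arrays (-1.62, limma adjusted p = 0.00748), the order seen for Rora. Nr1d2, a REV-ERB gene, rose by 0.61 (SE 0.10, limma adjusted p = 0.00173). The orphan receptor gene Nr2c2 fell by 0.41 (SE 0.07, limma adjusted p = 0.00242), while averaged over its 6 probe sets it differed by -0.16 and was not called.

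Coregulators are the proteins that receptors recruit to open or close chromatin. Of 21 measured, 3 rose and 10 fell in tumour lines, with a median of -0.31, beside 16.4% higher and 19.3% lower over all genes. Ppargc1b, a coactivator of mitochondrial genes, fell by 2.25 (SE 0.16, limma adjusted p = 1.33e-05) and read 6.13 ± 0.32 in tumour lines, 9.33 in the GFP-labelled library and 8.37 ± 0.05 in parental arrays. The steroid receptor coactivator genes Ncoa3 (-1.35, SE 0.08) and Ncoa1 (-1.25, SE 0.22) fell, with limma adjusted p-values of 4.76e-06 and 0.00213, and in the GFP-labelled library they differed by 0.02 and -0.07. The mean over the 3 probe sets of Ncoa1 differed by -0.82. The acetyltransferase gene Kat2b rose by 0.91 (SE 0.16, limma adjusted p = 0.00263). Its probe set 1450821_at differed by 0.94 and was called higher, and 1457809_at differed by -0.03 and was not called. The mean over the 3 Kat2b probe sets differed by 0.61. Med1, the Mediator subunit that receptors bind, rose by 0.55 (SE 0.09, limma adjusted p = 0.00123), although another of its 7 probe sets was called lower and their mean differed by 0.07. The corepressor gene Nrip1 rose by 0.47 (SE 0.14, limma adjusted p = 0.03), another of its 6 probe sets was called lower, and the call ended in 6 alternatives: the mean of its probe sets (0.15), the GFP-labelled library pooled with the parental arrays (0.40), and without parental array 1 (0.53), 2 (0.40) or 3 (0.48) or tumour line 6 (0.46).

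**Figure D4:**
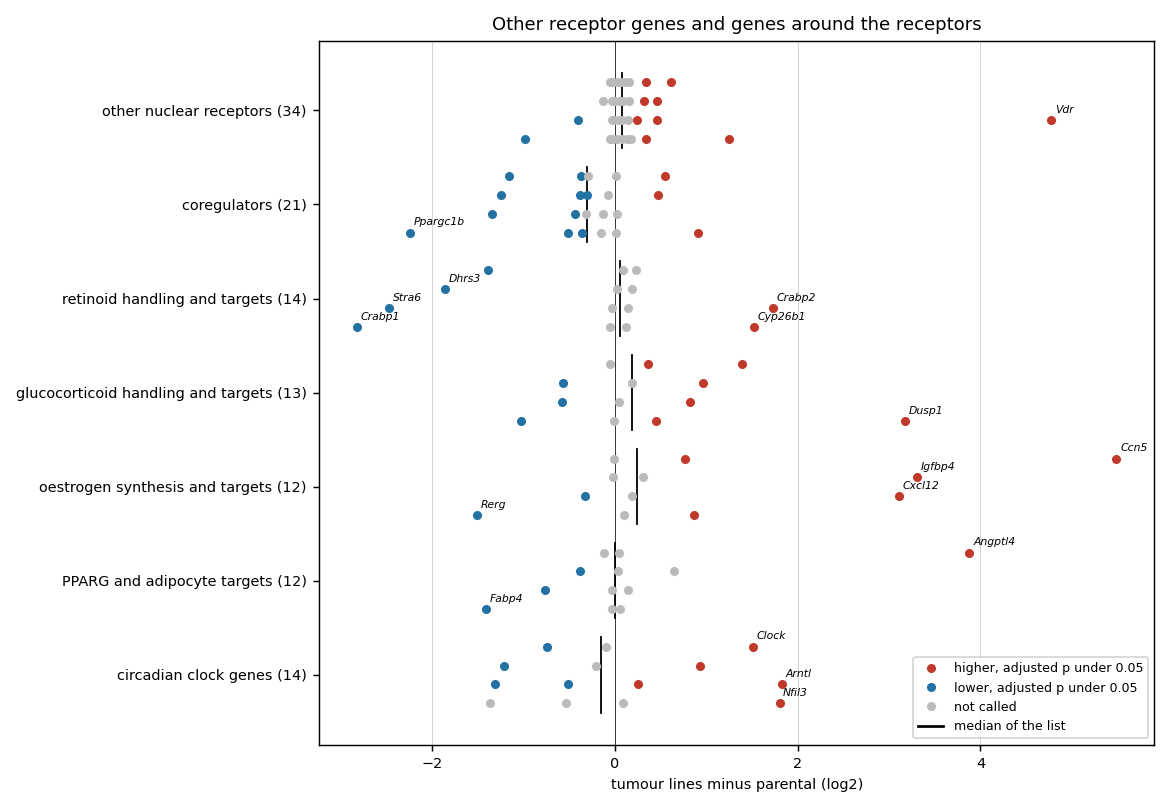
Difference between tumour lines and parental arrays (log2; horizontal axis) for each gene of 7 lists (rows, with the number of genes measured), by its brightest probe set. Coloured points passed an adjusted p under 0.05, grey points did not, and the vertical bar is the list's median; the medians lie between -0.31 and 0.24, with single genes such as Ccn5 (5.49), Vdr (4.78) and Crabp1 (-2.82) far from 0.

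Profiles over the 8 arrays were set beside each other by the root mean square difference after subtracting each gene's mean. The 5 genes most like the brightest Rorb probe set were the water channel gene Aqp1 (0.28), Ccn5 (0.29), the protease inhibitor gene Slpi (0.29), the complement protease gene Masp1 (0.30) and the lipocalin gene Lcn2 (0.39). All 5 were high in the 4 tumour lines and low on the other 4 arrays, like Rorb, which picking them by likeness gave beforehand. For the brightest Esr1 probe set, which is flat, the 5 were Lancl2, Exd2, Tmx1, Rab10 and Hif1a (0.05 to 0.07). For Esr1 1460591_at, a profile chosen after its values were seen, they were Trabd2b (0.28), Lgi2 (0.34), Hacd4 (0.34), Prss35 (0.35) and the cytokine gene Il6 (0.38). Each was highest in line 5, as is that Esr1 profile, and nothing is read from this because likeness was the rule of choice.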

How the data were processed

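Expression came as deposited log2 values, for which the submitters' processing notes name RMA and Partek, without versions or a genome build; that they are log2 was taken from their range. RMA subtracts background, gives arrays a shared distribution (medians 6.26 to 6.30) and compresses weak signals. Of 45101 probe sets, 34945 carried 1 gene symbol, 932 several and 9160 none, and 64 were controls; only the first were tested. Of these, 34741 had a gene ID in RefSeq's GRCm38.p6 table, and 0 symbols changed. Each gene is represented by its brightest probe set, by mean level over 8 arrays.

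Differences came from limma 3.58.1 in R 4.3.3 (lmFit, eBayes, 1 coefficient per group, two-sided), with Benjamini-Hochberg adjustment over 34945 probe sets, tested on simulated data. For the lone GFP-labelled array, the spread is that of the tumour lines and parental arrays. The number of arrays limits the precision. Members, lists and tests were chosen with earlier results of these data known. Named list genes were up to 3 called genes of largest rise and of largest fall per list, with Mycn and, for Rorb and Esr1, the 5 genes of most similar profile. Of the fixed list genes, some were not analysed here. Promoters are RefSeq's; 9 of the 10 members had 15 windows (not Nr3c1).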

Additional observations from a re-analysis of the deposited data

Results flagged for a closer look

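Among the 69 sets of 4 tumour-line values behind the named probe sets, 4 had a line whose gap to its neighbour, as a share of the whole range, passed the critical value of Dixon's test, which chance does in about 1 in 20 groups. Rorb 1439862_at read 9.36 in tumour line 6, below the other lines. Nr3c1 1421866_at read 5.66 in tumour line 4, below the other lines. Arntl read 8.80 in tumour line 6, below the other lines, and Igfbp4 read 14.06 in tumour line 5, above them.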

How the results depend on the processing

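Counts of called genes for the members and the 7 lists stayed within 1.5 times under the alternatives run, with 2 exceptions. Among probe sets above the median level, 1 member gene was called between the GFP-labelled library and parental arrays (2 with all probe sets; 7 of 10 genes were left), and 4 oestrogen genes were called between tumour lines and parental arrays (7; 8 of 12 were left). The other alternatives were 1 probe set per gene, averaging the probe sets of a gene, no _x_at or _s_at probe sets, a trended robust prior, array weights, renormalizing, centring, only the groups compared and the GFP-labelled library pooled with the parental arrays.

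Leaving out 1 array at a time gave 5 to 6 member genes for tumour lines against parental arrays (5 with all arrays), 2 to 3 for the GFP-labelled library against parental arrays, and 7 in each case for tumour lines against that library. It gave 9 to 11 of the other receptors, 10 to 14 coregulators, 5 to 6 retinoid, 8 to 9 glucocorticoid, 6 to 7 oestrogen, 3 to 5 PPARG and 8 to 9 clock genes. The shares of all genes called under these alternatives are not given here. The counts therefore show only how far calls moved, and nothing is read from them about the members or the lists. Averaged over its 3 probe sets, Esr1 differed by 1.52 between tumour lines and parental arrays. Against the GFP-labelled library it differed by 1.55 in the same average, where its brightest probe set differed by -0.19. The average includes the pair of probe sets that were higher. Of 1933 single probe set values under alternatives, 1876 kept their side of the threshold, and the called ones among them kept their direction. Those not called were counted even where their sign changed. For example, Esr1 1421244_at differed by 0.20 between the GFP-labelled library and parental arrays, and the mean of the Esr1 probe sets by -0.03. No paired analysis was possible because the labels pair no tumour line with a parental array. Background correction could not be varied without scanner intensities.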
